A study of Mus musculus with 30 samples.

Results

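The isocitrate dehydrogenases of the mouse heart were examined gene by gene and transcript by transcript. The members were chosen by name, as the 5 genes Idh1, Idh2, Idh3a, Idh3b and Idh3g out of 49671 genes in the table of the peptide study, and as all 32 of their transcripts out of 142647 transcripts in the table of the antibody study. Idh1 had 7 of these transcripts, Idh2 had 7, Idh3a had 5, Idh3b had 4 and Idh3g had 9. In the GRCm38 build, Idh1 lies at chr1:65158616-65186500 and Idh2 at chr7:80094846-80115392, both on the minus strand. Idh3a lies at chr9:54586334-54604661 on the plus strand, Idh3b at chr2:130279309-130284547 on the minus strand, and Idh3g at chrX:73778963-73786897 on the minus strand. They were also chosen by measured values, namely their CPM in each heart and the low level of Idh3b in the transcript table, so that level and the order of the members are given as a description with no test.

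Isocitrate dehydrogenases oxidise isocitrate to 2-oxoglutarate (alpha-ketoglutarate). The product of Idh1 works in the cytosol and peroxisomes and that of Idh2 in the mitochondrial matrix. Both use NADP+ and so form NADPH, which feeds antioxidant systems and biosynthesis. The products of Idh3a, Idh3b and Idh3g assemble into the NAD+-dependent enzyme of the TCA cycle, in which the alpha subunit from Idh3a carries the catalytic function while the beta subunit from Idh3b and the gamma subunit from Idh3g support and regulate it. The heart relies on this cycle for most of its ATP, and its mitochondria also hold abundant Idh2 protein.

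Left ventricles of male wild-type C57BL6J mice were sequenced in a pair of studies that were run separately. In the peptide study, 7 mice were given Aβ42, a human amyloid beta peptide (group Aβ42), and 7 were given the scrambled peptide ScrAβ42, by daily intraperitoneal injection for 4 weeks from an age of 12 weeks per the labels. In the antibody study, 8 mice received 3D6, an antibody that neutralises Aβ42 (group 3D6), and 8 received a control antibody (group Con), and these mice entered that study at 12 weeks of age. For the age at the first peptide injection, the study's methods give a range. The labels and the methods differ on the peptide dose and on whether the mice of the antibody study had been given Aβ42 or a high-fat diet, so the dose and that background are not stated here. Each mouse gave 1 library. Hearts of the peptide study are named by their titles, such as Abeta42_3457, and mice of the antibody study by their numbers. In bulk tissue, a lower level of a transcript per cell and fewer cells that hold it cannot be told apart.

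Libraries of the peptide study held between 4478991 and 6015767 counts and those of the antibody study between 6397192 and 8310478. The share of counts from the mitochondrial genome was 12.9% to 22.2% in the peptide study and 25.9% to 37.8% in the antibody study. The lowest value of the peptide study came from heart Abeta42_3457, and the lowest of the antibody study from Con mouse 22. Con mouse 22 also stood apart in its counts on transcripts annotated as retaining an intron, which made up 4.12% of its nuclear counts against 1.96% to 2.94% in the other hearts of that study. Markers of the atrium (Sln, Myl7, Myl4, Bmp10 and Mybphl) summed to 3.82 to 8417 CPM (counts scaled to the size of each library) over the hearts of the peptide study, with the highest sum in heart Abeta42_3457. Their median sum was 1158 CPM with Aβ42 and 10.5 CPM with ScrAβ42. Values without these mice are given beside many of the results that they moved.

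The sequence of Idh3a shows how its main transcripts overlap. Idh3a-205 is 2580 bases long and Idh3a-201 is 2403 bases, and the whole of Idh3a-201 is the 3′ end of Idh3a-205, which adds 177 bases at the 5′ end. The annotated coding sequence of Idh3a-205 opens 54 bases, or 18 codons, upstream of that of Idh3a-201 and in the same frame. The coding part of the first exon of Idh3a-205 (chr9:54586463-54586543, plus strand, GRCm38) is shown with the start codon of Idh3a-201 in capitals.
Idh3a-205, first coding exon: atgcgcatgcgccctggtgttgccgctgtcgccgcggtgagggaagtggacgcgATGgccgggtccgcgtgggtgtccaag

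Of the 31-base words in Idh3a-205, 147 occur in no other transcript of the gene, and Idh3a-201 has 0 such words. Counts were therefore assigned to Idh3a-201 without any stretch that belongs to it alone. The same held for Idh3g-202, a retained-intron transcript contained in Idh3g-209, and for Idh1-203.

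Idh1 has a pair of start regions, and the hearts of the antibody study used mainly one of them. The RefSeq promoters around both starts (250 bases before and 50 after the start, minus strand, GRCm38.p6) are shown because nearly all Idh1 counts fell on the transcript of the downstream start. Capitals mark CCAAT and GGGCGG on either strand.
Idh1 upstream start, chr1:65186430-65186729: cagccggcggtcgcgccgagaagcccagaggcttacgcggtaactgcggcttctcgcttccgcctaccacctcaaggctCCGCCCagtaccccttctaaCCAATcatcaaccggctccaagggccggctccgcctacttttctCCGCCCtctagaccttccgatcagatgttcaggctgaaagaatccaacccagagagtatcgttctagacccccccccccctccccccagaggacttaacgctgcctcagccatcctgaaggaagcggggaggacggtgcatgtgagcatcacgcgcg
Idh1 downstream start, chr1:65179093-65179392: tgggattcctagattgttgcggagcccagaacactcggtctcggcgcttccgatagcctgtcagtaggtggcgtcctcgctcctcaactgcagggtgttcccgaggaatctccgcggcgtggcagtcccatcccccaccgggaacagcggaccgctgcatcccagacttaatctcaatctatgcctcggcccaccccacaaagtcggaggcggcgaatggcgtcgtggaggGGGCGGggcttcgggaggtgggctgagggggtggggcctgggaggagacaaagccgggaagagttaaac

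The upstream region holds CCAAT once and GGGCGG at 2 places, and the downstream region holds GGGCGG once and no CCAAT. Of all 32851 promoters of this length, 37.4% hold CCAAT and 35.7% hold GGGCGG. Neither Idh1 region holds TATAAA, and neither holds TGACGTCA or CCGGAAG or TNAAGGTCA or GCATGCGC, the other motifs searched on both strands, which says only that these letters are not in these windows. Promoters were found for 4 of the 5 genes, Idh3a being the exception. The promoters of Idh2 and Idh3b each hold CCAAT once, at 44 and 76 bases before their starts, and that of Idh3g holds neither CCAAT nor GGGCGG.

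Idh2 was the most abundant member in both studies when CPM were divided by the length of each gene's main transcript. Over the hearts of the peptide study, the median was 1303 CPM per kb for Idh2, 525 for Idh3b, 413 for Idh3g, 250 for Idh3a and 21.5 for Idh1. Each gene stood above the next in 14 of 14 hearts. The ranges over hearts of neighbouring genes overlapped except between Idh3a (197 to 354 CPM per kb) and Idh1 (19.7 to 32.4). Over those of the antibody study, the medians were 867 CPM per kb for Idh2, 298 for Idh3g, 148 for Idh3a, 14.0 for Idh3b and 13.3 for Idh1. Idh2, Idh3g and Idh3a each stood above the next in 16 of 16 hearts with no overlap of ranges. Idh3b stood above Idh1 in 12 of 16 hearts, with overlapping ranges of 11.3 to 18.8 and 9.70 to 16.4 CPM per kb. Idh3b stood next to Idh2 in the peptide study and next to Idh1 in the antibody study.

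**Figure D1:**
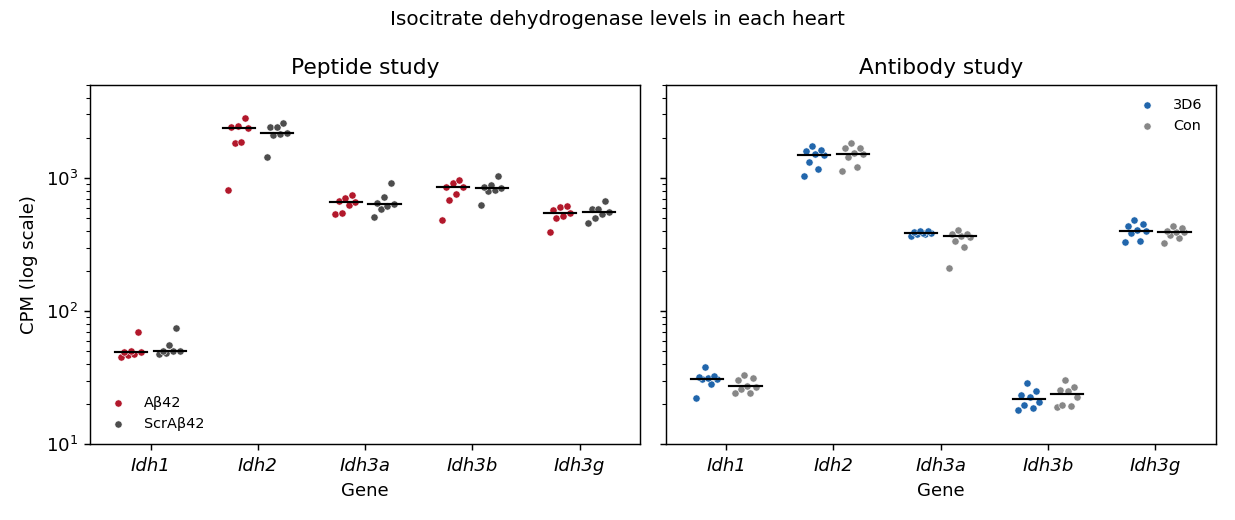
Level of each isocitrate dehydrogenase gene in every heart, in CPM on a log scale. Each point is 1 mouse and the black bar is the group median; left, Aβ42 and ScrAβ42 (n = 7 each), right, 3D6 and Con (n = 8 each). Treated and control hearts overlap for every gene, heart Abeta42_3457 is the low Idh2 point at 813 CPM, and Con mouse 22 is the low Idh3a point at 211 CPM.

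The comparison of Aβ42 with ScrAβ42 asks what the peptide does to these genes in the ventricle. None of the 5 members passed the test, and their fitted changes were small. With edgeR's quasi-likelihood test, adjusted by Benjamini-Hochberg over all genes, 0 of 11985 genes (0% of genes tested) were called at an adjusted p under 0.05. The unadjusted p was under 0.05 for 780 genes (6.51%) and for 0 members. DESeq2 called 12 genes, of which 0 were members. All 5 members had a fold change below 0, against 49.5% of all genes tested, and the median of the members was -0.07 on the log2 scale against 0.00 over all genes.

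Idh2, the mitochondrial NADPH-forming member, ranged from 813 to 2809 CPM with Aβ42 (median 2358) and from 1449 to 2570 CPM with ScrAβ42 (median 2189). The groups overlapped, 4 of the 7 Aβ42 hearts lay above the ScrAβ42 median, and the lowest heart was heart Abeta42_3457. The means were 2081 ± 655 CPM (SD, n = 7) and 2181 ± 369 CPM (SD, n = 7), a log2 fold change of -0.07 (SE 0.21, 95% interval -0.52 to 0.38, edgeR adjusted p = 0.969).

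Idh3a, the catalytic subunit, ranged from 536 to 740 CPM with Aβ42 (median 665) and from 508 to 913 CPM with ScrAβ42 (median 639). Both the lowest and the highest heart belonged to the ScrAβ42 group, as hearts ScrAbeta42_3448 and ScrAbeta42_3449. Its log2 fold change was -0.04 (SE 0.12, 95% interval -0.29 to 0.22, edgeR adjusted p = 0.969). Idh3b, the beta subunit, ranged from 483 to 966 CPM with Aβ42 and from 629 to 1032 CPM with ScrAβ42, with medians of 852 and 847 CPM. Its log2 fold change of -0.09 (SE 0.14, 95% interval -0.39 to 0.21, edgeR adjusted p = 0.947) had the largest size of the 5. Idh3g, the gamma subunit, ranged from 390 to 620 CPM and from 459 to 674 CPM, with a log2 fold change of -0.06 (SE 0.11, 95% interval -0.29 to 0.17). For all 3 subunits the groups overlapped, and heart Abeta42_3457 gave the lowest Aβ42 heart.

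Idh1, the cytosolic member, was much lower, at 45.2 to 70.0 CPM with Aβ42 and 47.4 to 74.6 CPM with ScrAβ42. A single heart stood high in each group, namely heart Abeta42_3460 at 70.0 CPM and heart ScrAbeta42_3449 at 74.6 CPM, and the other hearts lay between 45.2 and 55.4 CPM. The log2 fold change was -0.07 (SE 0.11, 95% interval -0.31 to 0.18).

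The shared direction of the members rested on single hearts. Without heart Abeta42_3457, only Idh1 stayed below 0, and the log2 fold change of Idh2 became 0.07 while those of Idh3a, Idh3b and Idh3g became 0.00, 0.00 and 0.01. Without heart ScrAbeta42_3449, Idh1 moved to 0.03 and Idh3a to 0.06. With the atrial marker score of each heart as a covariate, Idh2 stood at 0.26, Idh3b at 0.13, Idh3a at 0.09 and Idh3g at 0.08, and Idh1 at -0.02. None of these passed the test, the edgeR adjusted p of Idh2 being 0.808. The atrial markers themselves differed between the groups, with median sums of 1158 CPM with Aβ42 and 10.5 CPM with ScrAβ42. The part of atrial tissue in these values was not tested.

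**Figure D2:**
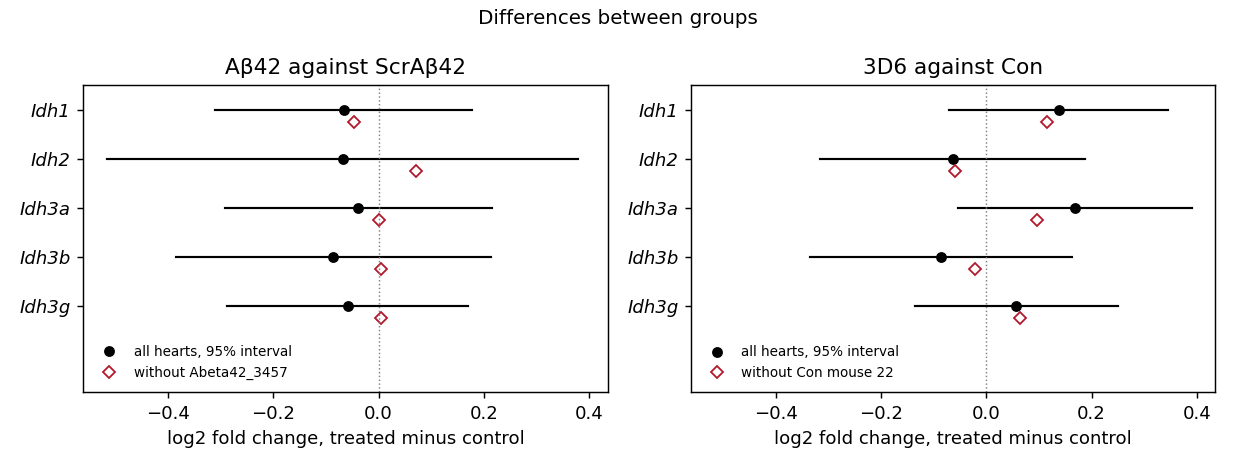
Log2 fold change of each member with its 95% interval (filled circles, all hearts; left, Aβ42 against ScrAβ42, right, 3D6 against Con) and after leaving out 1 heart (open diamonds; heart Abeta42_3457 on the left, Con mouse 22 on the right). Every interval includes 0; the diamond of Idh2 moves from -0.07 to 0.07 on the left and that of Idh3a from 0.17 to 0.10 on the right.

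The comparison of 3D6 with Con asks what neutralising Aβ42 does to the same genes. Transcript counts were summed per gene. None of the 5 members passed the test. edgeR called 0 of 12274 genes (0% of genes tested) at an adjusted p under 0.05. The unadjusted p was under 0.05 for 447 genes (3.64%) and for 0 members, and DESeq2 called 0 genes. Of the 5 members, 2 had a fold change below 0, against 52.6% of all genes tested.

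Idh3a ranged from 366 to 400 CPM with 3D6 (median 385) and from 211 to 405 CPM with Con (median 366). The 3D6 hearts were packed into a narrow band, with an SD of 11.6 CPM against 61.9 CPM in the Con hearts, and the groups overlapped. All 8 of the 3D6 hearts lay above the Con median, 4 Con hearts lay below the lowest 3D6 heart, and 1 Con heart, mouse 3, lay above the highest. The means were 386 ± 11.6 CPM (SD, n = 8) and 344 ± 61.9 CPM (SD, n = 8), a log2 fold change of 0.17 (SE 0.11, 95% interval -0.05 to 0.39, edgeR adjusted p = 0.946). Without Con mouse 22, whose Idh3a level was the lowest at 211 CPM, the log2 fold change was 0.10 (SE 0.07).

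Idh1 ranged from 22.3 to 37.8 CPM with 3D6 (median 31.1) and from 24.1 to 33.0 CPM with Con (median 27.2). The groups overlapped, with 7 of the 8 3D6 hearts above the Con median and the remaining one, mouse 7, lowest of all 16. Its log2 fold change was 0.14 (SE 0.10, 95% interval -0.07 to 0.35, edgeR adjusted p = 0.946). Without 3D6 mouse 7 it was 0.20 (SE 0.09, edgeR unadjusted p = 0.0356, adjusted p = 0.997).

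Idh2 ranged from 1042 to 1741 CPM with 3D6 and from 1136 to 1825 CPM with Con, with medians of 1499 and 1523 CPM and a log2 fold change of -0.06 (SE 0.12, 95% interval -0.32 to 0.19). That value was -0.01 without 3D6 mouse 7 and -0.11 without Con mouse 8. Idh3g ranged from 329 to 487 CPM with 3D6 and from 327 to 433 CPM with Con, with a log2 fold change of 0.06 (SE 0.09, 95% interval -0.14 to 0.25), which was 0.01 without 3D6 mouse 24 and 0.10 without 3D6 mouse 12. Idh3b ranged from 18.2 to 29.0 CPM with 3D6 and from 19.2 to 30.4 CPM with Con, with a log2 fold change of -0.09 (SE 0.12, 95% interval -0.33 to 0.16), which was -0.02 without Con mouse 22. All of these groups overlapped. With the mitochondrial share of each heart as a covariate, Idh2 stood at 0.01 and Idh3b at 0.03 on the log2 scale, so the sign of both turned.

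Among the transcripts, 17 of the 32 reached a mean of 1 CPM, and 16 reached a mean of 10 estimated counts and were tested. The other 15 had means of at most 0.793 CPM, and 5 of them had no count in any heart. edgeR called 0 of 20857 transcripts (0% of transcripts tested) at an adjusted p under 0.05. The unadjusted p was under 0.05 for 500 transcripts (2.4%) and for 0 of the 16. Without the filter on low counts, it was under 0.05 for 7350 of 77432 transcripts and for 3 of 27 from these genes, with 0 called. DESeq2 called 9 transcripts, none from these genes. Of the 16 tested, 9 had a fold change below 0, against 51% of all transcripts tested.

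Idh3a was the gene whose counts were most divided. Over all hearts, Idh3a-205 held 48.4% of its estimated counts, and retained-intron transcripts held 14.4%. Idh3a-205 ranged from 143 to 303 CPM with 3D6 (median 166) and from 18.3 to 238 CPM with Con (median 186), with a log2 fold change of 0.27 (SE 0.36, 95% interval -0.49 to 1.03), which was 0.12 without Con mouse 22. Idh3a-201 ranged from 28.2 to 207 CPM with 3D6 (median 166) and from 41.9 to 192 CPM with Con (median 151), with a log2 fold change of 0.03 (SE 0.35, 95% interval -0.71 to 0.77). The hearts at the ends of one transcript's range were at or near the opposite end of the other's. In 3D6 mouse 12, Idh3a-205 held 76.9% and Idh3a-201 held 7.13% of the gene's counts. In Con mouse 22, Idh3a-205 held 8.66% and Idh3a-201 held 90.5%.

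As a share of Idh3a counts, Idh3a-205 averaged 49.9% ± 15.0 in the 8 hearts given 3D6 and 44.0% ± 17.8 in the 8 Con hearts (SD), 5.92 percentage points apart (exact permutation test, two-sided, p = 0.494, adjusted p = 0.813 over 5 genes). Without Con mouse 22, the difference was 0.876 points. In the 3D6 hearts the SD was 61.1 CPM for Idh3a-205 and 61.0 CPM for Idh3a-201, against 11.6 CPM for the gene total. In the Con hearts it was 75.4 and 48.1 CPM, against 61.9 CPM for the gene total.

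**Figure D3:**
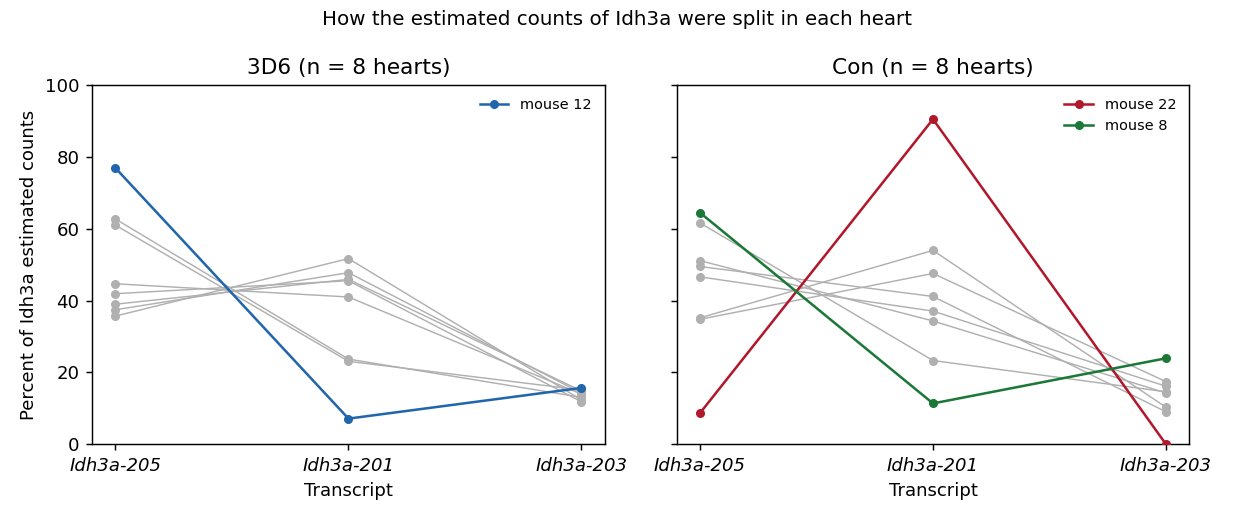
Percent of the Idh3a estimated counts placed on Idh3a-205, Idh3a-201 and the retained-intron transcript Idh3a-203 in each heart, 1 line per mouse (left, 3D6; right, Con; n = 8 each). Idh3a-205 ranges from 8.66% in Con mouse 22 to 76.9% in 3D6 mouse 12, and the lines cross because hearts with a high share of one coding transcript have a low share of the other.

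Idh3a-203, a retained-intron transcript, ranged from 43.6 to 61.8 CPM with 3D6 and from 0 to 88.2 CPM with Con. It was listed at 0 in Con mouse 22 alone, and the highest was Con mouse 8. Its log2 fold change was 0.16 (SE 0.54), and -0.02 without Con mouse 22. Idh3a-202, the other retained-intron transcript, lay between 0.83 and 2.27 CPM in every heart.

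The other members each had a dominant transcript among those that the annotation names. For Idh3b, such a share is of a low sum, from which a transcript that the annotation does not name would be missing. Idh2-201 held 96.9% of Idh2 counts over all hearts, Idh3g-201 held 95.8% of Idh3g counts, Idh1-201 held 95.3% of Idh1 counts and Idh3b-201 held 80.2% of Idh3b counts. Idh1-201, the transcript of the downstream start, ranged from 21.5 to 32.2 CPM with 3D6 and from 24.3 to 33.1 CPM with Con. The log2 fold change of Idh1-201 was 0.07 (SE 0.09, 95% interval -0.12 to 0.27), and 0.13 without 3D6 mouse 7. Idh1-203, from the upstream start, was above 0 in 6 of 16 hearts and reached 7.79 CPM in 3D6 mouse 20 and 3.47 CPM in Con mouse 3. The share of Idh1 counts on Idh1-201 averaged 93.7% ± 8.0 in the 8 hearts given 3D6 and 97.7% ± 4.21 in the 8 Con hearts (SD) (exact permutation test, two-sided, p = 0.235, adjusted p = 0.813). The difference of -3.92 percentage points became -1.82 without 3D6 mouse 20 and -2.49 without 3D6 mouse 21. The corresponding differences were 0.530 percentage points for Idh2-201, 1.06 for Idh3b-201 and 1.15 for Idh3g-201, each at an adjusted p of 0.813 in the exact permutation test. Without Con mouse 22 they were 0.110, 1.80 and -0.389 points, so that of Idh3g-201 changed sign, and that of Idh3b-201 was -0.703 without Con mouse 8 and 0.149 without 3D6 mouse 17.

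Among the minor transcripts of Idh2, Idh2-204, which is annotated as a target of nonsense-mediated decay, ranged from 7.37 to 29.6 CPM with 3D6 and from 10.3 to 40.4 CPM with Con (log2 fold change -0.28, SE 0.28, and -0.15 without 3D6 mouse 7). The retained-intron transcript Idh2-205 ranged from 8.71 to 16 CPM with 3D6 and from 6.36 to 51.1 CPM with Con, the highest being Con mouse 22. Its log2 fold change was -0.43 (SE 0.42), and it was 0.14 without that mouse. The retained-intron transcripts Idh2-206 and Idh2-203 stayed between 1.04 and 15.5 CPM, and the log2 fold change of Idh2-206 was -0.45 with all hearts and -0.01 without Con mouse 22. For Idh3g, the retained-intron transcript Idh3g-209 ranged from 3.69 to 8.41 CPM with 3D6 and from 5.46 to 9.51 CPM with Con, with a log2 fold change of -0.26 (SE 0.17, 95% interval -0.61 to 0.10). Idh3g-202 was above 0 in 10 of 16 hearts and stood at 48.8 CPM in Con mouse 22 against at most 8.51 CPM elsewhere. The log2 fold change of Idh3g-202 was -0.89 with all hearts and 0.98 without that mouse. Idh3g-208, also a retained-intron transcript, ranged from 0.81 to 2.55 CPM with 3D6 and from 0.28 to 3.15 CPM with Con. Its log2 fold change was 0.19 (SE 0.48), and 0.04 without Con mouse 8.

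Retained-intron counts of Con mouse 22 differed from gene to gene. They were 4.73% of Idh2 counts against 0.753% to 1.93% in the other Con hearts, and 15.6% of Idh3g counts against 2.11% to 4.61%. For Idh3a they were 0.878%, the lowest of any heart, with the other hearts between 9.40% and 24.2%, and for Idh3b they were 11.8%, also the lowest. Idh1 has no transcript annotated as retaining an intron. The library-wide share of this mouse was the highest of the study, and its part in the Idh values was not tested.

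**Figure D4:**
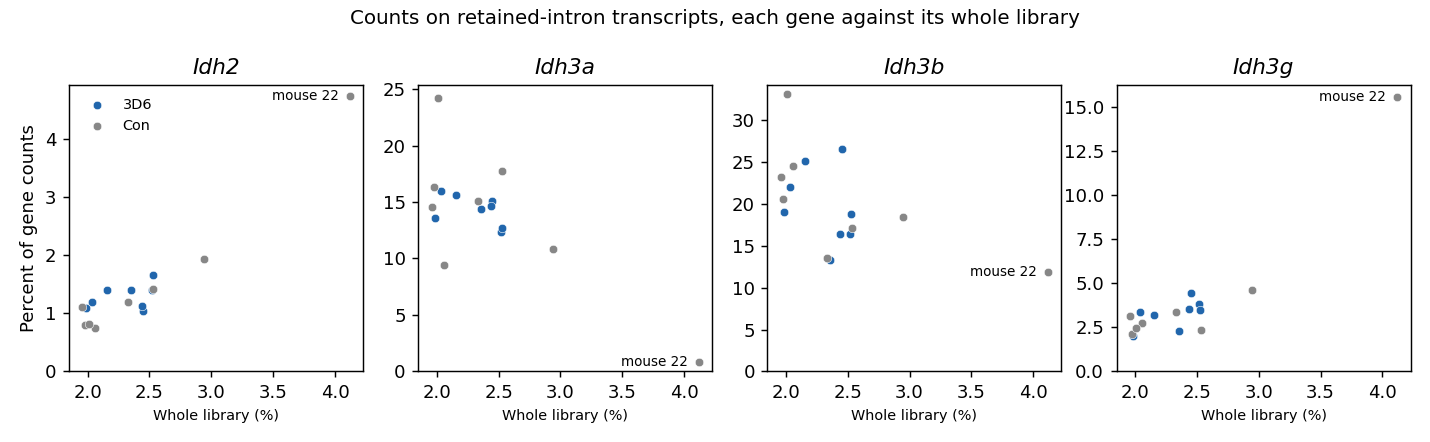
Percent of each gene's estimated counts on its retained-intron transcripts (y axis) against the same percent over all nuclear counts of the library (x axis), for the 16 hearts of the antibody study, by antibody. Con mouse 22, at 4.12% on the x axis, is highest for Idh2 and Idh3g and lowest for Idh3a and Idh3b.

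Idh3b was low in the transcript table. Its 4 transcripts together held 117 to 213 estimated counts per heart (median 156), whereas the peptide table held 3517 to 5330 counts per heart (median 4242). The median level was 22.6 CPM in the antibody study and 849 CPM in the peptide study, a difference of -5.23 on the log2 scale. The tables were made and normalised separately, so this difference sets 2 pipelines side by side as well as 2 sets of mice. For the other 4 members the same difference was between -0.76 and -0.47. For 14 other TCA cycle enzymes it was between -1.12 for Sdha, a subunit of succinate dehydrogenase, and 0.33 for Suclg2, the GTP-forming subunit of succinyl-CoA ligase, with a median of -0.62. Among these 19 genes, Idh3b was the lowest.

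**Figure D5:**
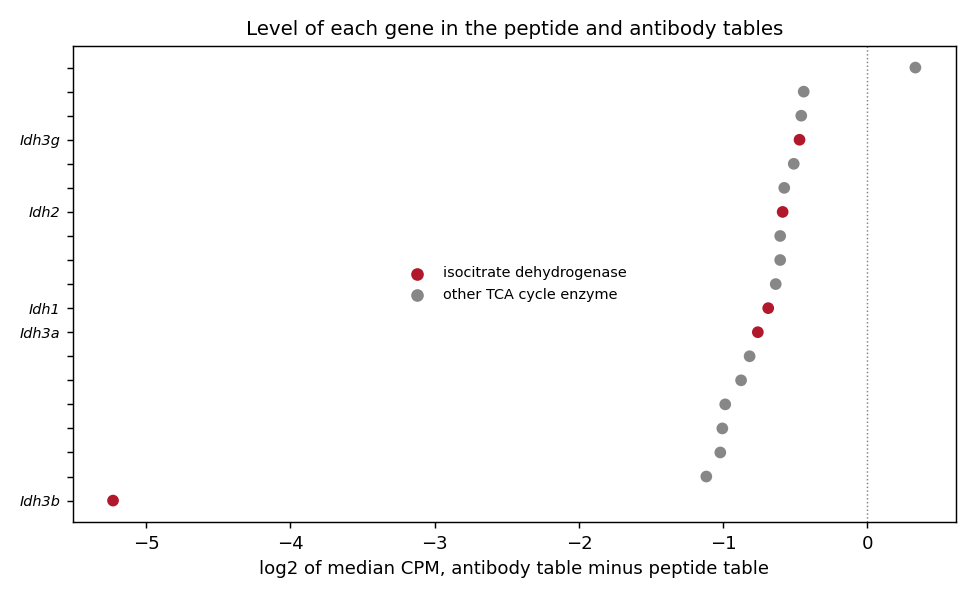
Difference between the antibody table and the peptide table in the median level of each gene, as log2 of median CPM, for the 5 isocitrate dehydrogenases (red) and 14 other TCA cycle enzymes (grey, not named on the axis). Idh3b lies at -5.23, and the other 18 genes lie between -1.12 and 0.33.

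Of the Idh3b transcripts, the protein-coding Idh3b-201 ranged from 13.9 to 23.5 CPM with 3D6 and from 13.1 to 25.8 CPM with Con, and the retained-intron transcript Idh3b-203 from 2.25 to 6.03 CPM and from 3.01 to 6.39 CPM. Idh3b-202 and Idh3b-204 had means of at most 0.793 CPM. The annotation used here names 1 protein-coding transcript of Idh3b, whereas the RefSeq table lists 2. The transcript table also has 1123 transcripts that this annotation does not name, with 0.381% of all counts. Of these, 2 had a mean above 3000 counts per heart, at 6249 and 3045. They were not assigned to any gene, so a transcript of Idh3b that the annotation does not name would be missing from the sums above, and this was not tested.

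Ratios between the RNA levels of members were compared within hearts. In the antibody study those with Idh3b rest on its low sum in the transcript table. With the peptides, the log2 ratio of Idh3a to Idh3g averaged 0.27 ± 0.11 (SD, n = 7) with Aβ42 and 0.23 ± 0.15 (SD, n = 7) with ScrAβ42, 0.04 apart (exact permutation test, two-sided, p = 0.588, adjusted p = 0.806 over 5 ratios). The difference was 0.08 for Idh3a to Idh3b, -0.04 for Idh3b to Idh3g, -0.07 for Idh2 to Idh1 and -0.11 for Idh2 to Idh3a, each at an adjusted p of 0.806 in the exact permutation test. The log2 ratio of Idh2 to Idh3a stood at 0.60 in heart Abeta42_3457 and between 1.26 and 1.98 in the other hearts, and without this mouse the difference between groups was 0.06. Without it, the differences for Idh3a to Idh3g, Idh3a to Idh3b and Idh3b to Idh3g were 0.01, 0.01 and 0.00, and that for Idh2 to Idh1 turned to 0.12.

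With the antibodies, the log2 ratio of Idh2 to Idh1 averaged 5.53 ± 0.21 in the 8 hearts given 3D6 and 5.72 ± 0.18 in the 8 Con hearts (SD), which differed by -0.20 (exact permutation test, two-sided, p = 0.0667, adjusted p = 0.287). The difference was 0.27 for Idh3a to Idh3b, -0.26 for Idh2 to Idh3a, 0.14 for Idh3a to Idh3g and -0.13 for Idh3b to Idh3g. In the exact permutation test the adjusted p was 0.337 for Idh3a to Idh3g and 0.287 for the others. Without Con mouse 22, the difference was 0.12 for Idh3a to Idh3b, -0.16 for Idh2 to Idh3a, 0.04 for Idh3a to Idh3g, -0.08 for Idh3b to Idh3g and -0.17 for Idh2 to Idh1.

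Across the 14 hearts of the peptide study, 9 of the 10 pairs of members passed the test on Pearson's r and 8 passed it on Spearman's rho. The share of all gene pairs that would pass was not tested, so these counts cannot be read as particular to this family. Over the same hearts, Fh1, a gene outside it, had an r of 0.995 with Idh3b. On log2 CPM, Idh3b and Idh3g had a Pearson r of 0.964 (adjusted p = 0.0001 over 10 pairs, permutation test, from the smallest p that 100000 permutations can give) and a Spearman rho of 0.921 (adjusted p = 0.0001). The r was 0.983 within Aβ42, 0.943 within ScrAβ42 and 0.905 without the 2 hearts farthest from the Idh3b median, ScrAbeta42_3448 and Abeta42_3457. Idh3a had an r of 0.811 with Idh3b and of 0.814 with Idh3g (adjusted p = 0.001 for each, permutation test), with rho of 0.824 and 0.758, and r of 0.788 and 0.732 without ScrAbeta42_3448 and ScrAbeta42_3449. Idh2 had an r of 0.929 with Idh3b and of 0.871 with Idh3g (adjusted p = 0.0001 and 0.0004, permutation test), with rho of 0.842 and 0.811, and r of 0.713 and 0.609 without ScrAbeta42_3448 and Abeta42_3457. Idh2 with Idh3a had an r of 0.580 (adjusted p = 0.0465, permutation test) and a rho of 0.653 (adjusted p = 0.0189), and its r was 0.322 without those mice. Idh1 had an r of 0.762 with Idh3a (adjusted p = 0.001, permutation test), 0.583 with Idh3b and 0.588 with Idh3g (adjusted p = 0.0426 for each), with rho of 0.569, 0.684 and 0.490 (adjusted p = 0.0458, 0.0144 and 0.0787). Without Abeta42_3460 and ScrAbeta42_3449, the hearts with the highest Idh1, these r were 0.425, 0.433 and 0.347. The pair that did not pass was Idh1 with Idh2 (r = 0.358, adjusted p = 0.172, permutation test, rho = 0.534).

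These relations depended in part on the scaling. With CPM of the total count in place of TMM-scaled CPM, Idh3a with Idh3b fell to an r of 0.508 and Idh3a with Idh3g to 0.544, neither past an adjusted p of 0.05, and Idh2 with Idh3a fell to 0.095. Those of Idh1 with Idh3a, Idh3b and Idh3g fell to 0.633, 0.196 and 0.305, and none of these passed. The pairs of Idh2, Idh3b and Idh3g with one another stayed past it.

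Across the 16 hearts of the antibody study, 1 of the 10 pairs passed the test. Here too, the share of all gene pairs that would pass was not tested. Idh2 and Idh3g had an r of 0.856 and a rho of 0.829 (adjusted p = 0.0003 and 0.0014, permutation test), with r of 0.930 within 3D6, 0.879 within Con and 0.779 without mice 7 and 8. Idh3b and Idh3g had an r of 0.483 (adjusted p = 0.0987), with 0.847 within 3D6 and 0.123 within Con. With CPM of the total count, this pair passed as well (r = 0.649, adjusted p = 0.0336, permutation test). Idh3a had an r of -0.523 with Idh3b (adjusted p = 0.0698, permutation test), which was -0.06 without Con mice 18 and 22 and so rested on those hearts. Pairs with Idh3b rest here on its low sum in the transcript table. The difference in r between the studies was not tested.

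The share of counts from the mitochondrial genome moved with some members in the antibody study. Idh3a rose with it (r = 0.726, adjusted p = 0.0019, rho = 0.621, permutation test over 16 hearts) and Idh3b fell (r = -0.705, adjusted p = 0.00585, rho = -0.724). Without mice 4 and 22, r was 0.558 and -0.534. Within groups, r was 0.459 in 3D6 and 0.766 in Con for Idh3a, and -0.510 and -0.817 for Idh3b. Idh2 had an r of 0.731 with the same share in the peptide study (adjusted p = 0.0179, permutation test over 14 hearts), but rho was 0.367 and r was 0.091 without ScrAbeta42_3448 and Abeta42_3457, so that relation rested on them. The same held for Idh3b there (r = 0.651, adjusted p = 0.0318, permutation test), whose rho was 0.310 and whose r was -0.062 without those hearts. Its sign over all hearts was the opposite of that in the antibody study, where Idh3b rests on its low sum in the transcript table. This difference in sign was not tested.

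The genes whose levels followed each member most closely, given as a description over hearts that share library preparation and scaling, were these. Over the 14 hearts of the peptide study, the nearest to Idh3b were Fh1, fumarase (r = 0.995, rho = 0.974), Uqcrc1, a core subunit of complex III (r = 0.994, rho = 0.956), and Atp5a1, a subunit of ATP synthase (r = 0.992, rho = 0.969). Those to Idh3g were Atp5o of ATP synthase (r = 0.980, rho = 0.943) and Cox4i1 and Cox5b of cytochrome c oxidase (r = 0.980 and 0.976, rho = 0.974 and 0.938). Those to Idh2 were Nnt, the mitochondrial transhydrogenase that also forms NADPH (r = 0.990, rho = 0.903), Nadk2, the mitochondrial NAD kinase (r = 0.983, rho = 0.925), and Pygm, muscle glycogen phosphorylase (r = 0.977, rho = 0.934). Those to Idh3a were Abcd3, a peroxisomal transporter (r = 0.953, rho = 0.952), Dlst, a subunit of the 2-oxoglutarate dehydrogenase complex (r = 0.948, rho = 0.921), and Alas1 of haem synthesis (r = 0.946, rho = 0.881). Those to Idh1 had lower values, namely Dus1l (r = 0.886, rho = 0.618), Arfrp1 (r = 0.883, rho = 0.833) and Slirp (r = 0.877, rho = 0.771).

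Over the 16 hearts of the antibody study, the nearest to Idh2 included Fth1, ferritin heavy chain (r = 0.963, rho = 0.941), and Uqcrc1 (r = 0.962, rho = 0.950). Those to Idh3g were Atp5b and Atp5c1 of ATP synthase (r = 0.962 and 0.952, rho = 0.932 and 0.947) and Ndufv1 of complex I (r = 0.946, rho = 0.891). Those to Idh3a included Ghitm (r = 0.971, rho = 0.747) and a transcript that the annotation does not name. Idh3b, at its low level there, was nearest to Dmac2 (r = 0.908, rho = 0.915), Ap1g2 (r = 0.896, rho = 0.876) and Rpp25l (r = 0.895, rho = 0.900), and Idh1 to Cmpk1 (r = 0.822, rho = 0.729), Pik3ip1 (r = 0.806, rho = 0.676) and Hat1 (r = 0.790, rho = 0.753). No gene was among the nearest to the same member in both studies.

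Beside the members stood 14 other TCA cycle enzymes. With Aβ42 against ScrAβ42, 0 of 14 passed the test at an adjusted or unadjusted p under 0.05 (edgeR), 13 had a fold change below 0, against 49.5% of all genes tested, and the median was -0.04 on the log2 scale. The median turned to 0.146 with the atrial score as a covariate and to 0.035 without heart Abeta42_3457. The most abundant included Ogdh, a subunit of the 2-oxoglutarate dehydrogenase complex, at 2711 ± 542 CPM with Aβ42 and 2996 ± 425 CPM with ScrAβ42 (SD, n = 7), and Sdha, a subunit of succinate dehydrogenase, at 1884 ± 398 and 2010 ± 250 CPM. With 3D6 against Con, 0 of 14 passed, 2 had a fold change below 0, against 52.6% of all genes tested, and the median was 0.11, or 0.05 without Con mouse 22. Ogdh stood at 2057 ± 186 CPM with 3D6 and 1912 ± 447 CPM with Con (SD, n = 8).

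Among 11 enzymes that form NADPH outside this family, 0 passed the adjusted threshold in either study. Of these, 3 had an unadjusted p under 0.05 in the peptide study (edgeR), where 6.51% of all genes did, each with a fold change above 0 and a low level. Mthfd2l, a mitochondrial folate enzyme, ranged from 4.56 to 6.18 CPM with Aβ42 and from 2.39 to 5.23 CPM with ScrAβ42, with 7 of 7 Aβ42 hearts above the ScrAβ42 median (log2 fold change 0.53, SE 0.17, edgeR adjusted p = 0.643). Aldh1l1 averaged 7.64 ± 3.10 and 5.01 ± 1.15 CPM (log2 fold change 0.62, SE 0.24, edgeR adjusted p = 0.702), and Aldh1l2 averaged 16.6 ± 11.1 and 10.1 ± 3.26 CPM (log2 fold change 0.73, SE 0.34, edgeR adjusted p = 0.762). With the antibodies, none of these 11 had an unadjusted p under 0.05, and the log2 fold change was 0.18 (SE 0.20) for Mthfd2l, -0.14 (SE 0.29) for Aldh1l1 and 0.19 (SE 0.31) for Aldh1l2.

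Among 14 genes that carry or convert isocitrate, 2-oxoglutarate or metabolites close to them, 0 passed the adjusted threshold in either study. With Aβ42, 11 of them had a fold change below 0, against 49.5% of all genes tested, and the median was -0.06 on the log2 scale, which became 0.107 with the atrial score as a covariate. Without heart Abeta42_3457 that median was 0.011. With 3D6, 1 had a fold change below 0, against 52.6% of all genes tested, and the median was 0.17. That gene, Acly, ATP citrate lyase of the cytosol, had an unadjusted p of 0.0408 in the antibody study (edgeR), the only one of the 14 under 0.05, where 3.64% of all genes were. It ranged from 18.9 to 24.9 CPM with 3D6 and from 20.1 to 31.2 CPM with Con. None of the 8 3D6 hearts lay above the Con median, and the log2 fold change was -0.21 (SE 0.10, edgeR adjusted p = 0.946). Its log2 fold change in the peptide study was -0.09 (SE 0.10). Of the deacylases Sirt3, Sirt4 and Sirt5, which act on mitochondrial enzymes including Idh2, 0 had an unadjusted p under 0.05 in either study, and their median log2 fold change was 0.03 with the peptide (0.144 with the atrial score as a covariate) and -0.03 with the antibody. The peptide value was 0.124 without heart Abeta42_3457 and -0.068 without heart Abeta42_3460.

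Markers of other tissues differed between hearts beside these values. With the peptides, Bmp10, an atrial marker, ranged from 0 to 1209 CPM with Aβ42 and from 0 to 8.04 CPM with ScrAβ42. The adipocyte markers Ucp1 and Plin1 ranged from 0 to 248 and from 0 to 84.8 CPM with Aβ42, and from 0 to 0.194 and from 0 to 9.21 CPM with ScrAβ42. The edgeR unadjusted p was under 0.05 for these 3 genes and the adjusted p was not. The adipocyte markers summed to at most 640 CPM, in heart Abeta42_3457, the heart with the lowest Idh2. Blood markers summed to 556 to 5073 CPM with Aβ42 and 803 to 15940 CPM with ScrAβ42. Skeletal muscle markers summed to 4.76 to 75.1 CPM with Aβ42 and 44.55 to 68.7 CPM with ScrAβ42. All 6 of these had a fold change below 0 (median -0.725 on the log2 scale), and 0 had an edgeR unadjusted p under 0.05. In the antibody study, adipocyte markers summed to at most 9.86 CPM. Atrial markers there summed to 1.05 to 668 CPM with 3D6 (median 98.5) and to 0.821 to 2776 CPM with Con (median 2.88), with the highest sum in Con mouse 15. Pecam1, an endothelial marker, averaged 123 ± 7.45 CPM with 3D6 and 144 ± 18.9 CPM with Con (SD, n = 8), a log2 fold change of -0.23 (SE 0.08, edgeR adjusted p = 0.946). Con mouse 22 had the highest sums of blood (2692 CPM), endothelial (946 CPM), fibroblast (699 CPM) and leukocyte markers (19.5 CPM) in the antibody study. Ventricular cardiomyocyte markers were abundant in every heart, at a sum of 38670 CPM or more. The part of these markers in the values of the members was not tested.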

How the data were processed

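Left ventricles of 30 mice were measured by RNA sequencing. For the peptide study the authors deposited a table of counts per gene. For the antibody study they deposited estimated counts per transcript, made with Salmon on GRCm38 per the labels and the study's methods, which name GENCODE release M24. Names and positions here came from release M21, which listed 99.2% of the transcripts. Estimated counts divide reads between transcripts that share sequence, and were rounded for the tests. They were summed per gene, and a transcript without a listed gene kept its own row. The peptide table has 1 further column that could be tied to no label, and it was left out.

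Genes and transcripts with a mean of 10 counts or more were tested with edgeR 4.0.16 (TMM scaling, quasi-likelihood test, Benjamini-Hochberg adjustment over all features of a table) in R 4.3.3, each study on its own. CPM used the TMM-scaled library sizes, and log2 CPM a prior count of 2. The 95% intervals come from the test's standard errors. Shares and ratios were compared by two-sided exact permutation tests over hearts, and relations by 100000 permutations (numpy 2.4.6, scipy 1.17.1). The scripts were tested on simulated data with known changes. Alternatives were DESeq2 1.42.0, other scalings and filters, covariates and leaving out each heart. No pair of replicates agreed within sampling noise, with a chi-square of at least 3.57 per degree of freedom. The labels number each mouse separately.

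The genes named were the members, their transcripts with a mean of at least 1 CPM, genes of the lists at an unadjusted p under 0.05 in either study, the 3 most abundant other TCA cycle enzymes, and the 3 genes nearest to each member. Some genes that this rule names are not reported here. The members and lists were chosen with earlier results of these data known.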

Additional observations from a re-analysis of the deposited data

Results flagged for a closer look

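Over 116 sets of values, each of 1 measure in 1 group, 19 had a heart that stood far from the others, where chance alone flags about 1 in 20. Of these, 9 came from Con mouse 22, 3 from Con mouse 3, 2 from 3D6 mouse 24, 2 from heart Abeta42_3457, and 1 each from heart Abeta42_3460, heart ScrAbeta42_3448 and heart ScrAbeta42_3449. The sets are not independent, since transcript levels and shares come from the same counts.

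In Con mouse 22, Idh2-205 stood at 51.1 CPM (3.38% of Idh2 counts, against 0.377% to 1.24% in the other Con hearts) and Idh2-206 at 15.5 CPM (1.02%). Idh3g-202 stood at 48.8 CPM (12.3% of Idh3g counts, against 0% to 1.69%), and Idh3g-201 fell to a share of 84.4%. Retained-intron transcripts made up 4.73% of Idh2 counts and 15.6% of Idh3g counts there. In Con mouse 3, Idh1-203 stood at 3.47 CPM and 11.3% of Idh1 counts, and Idh1-201 at 87.9%. In 3D6 mouse 24, Idh2-206 held 0.541% of Idh2 counts and Idh3g-209 held 0.753% of Idh3g counts.

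With the peptides, Idh1 was high in heart Abeta42_3460 at 70.0 CPM and in heart ScrAbeta42_3449 at 74.6 CPM, against medians of 48.3 and 49.9 CPM in the other hearts of their groups. Idh2 was low in heart ScrAbeta42_3448 at 1449 CPM. In heart Abeta42_3457, the log2 ratio of Idh2 to Idh1 was 4.10 and that of Idh2 to Idh3a was 0.60. The causes were not tested.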

How the results depend on the processing

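The members called stayed at 0 under every alternative, leaving out each heart included. Across all genes of the peptide study, DESeq2 called 12 and leaving out a heart called 0 to 3. DESeq2 called 9 transcripts of the antibody study. No paired analysis was run, because the groups compared share no mouse numbers. Of 386 values recomputed with another setting, 21 changed sign, of which 16 concerned the members and 5 were medians of other gene lists, and 7 crossed the threshold, all of them relations between members. The filter on low counts kept Idh1-203, with a mean under 10 counts, out of the transcript test. The causes of the changes below were not tested.

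After adding each heart's atrial score to the model, the log2 fold changes in the peptide study were 0.26 for Idh2, 0.13 for Idh3b, 0.0938 for Idh3a and 0.0838 for Idh3g. With the mitochondrial share as a covariate, those in the antibody study were 0.0309 for Idh3b and 0.0095 for Idh2, and for transcripts 0.0846 for Idh3b-201, 0.0047 for Idh2-201, 0.32 for Idh2-205, 0.16 for Idh2-206, 0.0276 for Idh2-203, -0.0088 for Idh3a-203 and 1.10 for Idh3g-202. With CPM of the total count, it was -0.0237 for Idh3a-201, and r was -0.144 for Idh1 with Idh2 in the peptide study and -0.152 for Idh3a with Idh3g in the antibody study.

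Leaving out each heart in turn gave these ranges where the sign changed. In the peptide study it ran, as a log2 fold change, from -0.16 to 0.0310 for Idh1, -0.15 to 0.0708 for Idh2, -0.0933 to 0.0570 for Idh3a, -0.15 to 0.0042 for Idh3b and -0.10 to 0.0051 for Idh3g. The log2 ratio difference ran from -0.15 to 0.12 for Idh2 to Idh1 and -0.19 to 0.0596 for Idh2 to Idh3a. In the antibody study, the transcript log2 fold change ran from -0.15 to 0.0005 for Idh3b-201, -0.20 to 0.0112 for Idh3b-203, -0.10 to 0.0027 for Idh2-201, -0.55 to 0.14 for Idh2-205, -0.26 to 0.0031 for Idh2-203, -0.10 to 0.19 for Idh3a-201, -0.0246 to 0.33 for Idh3a-203 and -1.10 to 0.98 for Idh3g-202. The share difference ran from -0.703 to 2.09 percentage points for Idh3b-201 and -0.389 to 1.49 for Idh3g-201. Among gene lists of the peptide study, the median log2 fold change ran from -0.09 to 0.035 for the other TCA cycle enzymes. It ran from -0.083 to 0.011 for the isocitrate and 2-oxoglutarate list and from -0.068 to 0.124 for the deacylases. For the NADPH-forming enzymes outside the family it ran from -0.042 to 0.1 in the antibody study.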
